A study of Caenorhabditis elegans with 3 samples.

Results

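The respiratory chain and the ATP synthase of mitochondria were followed in the nematode worm Caenorhabditis elegans, in hermaphrodites at the start of young adulthood. Genes were taken by name: every probe whose single gene symbol starts with nuo-, sdha-, sdhb-, sdhd-, ucr-, cyc-, cox-, atp-, asb- or asg-, or is gas-1 or isp-1, with a value on all arrays. This gave 36 genes, measured by 38 probes, of 15062 named genes. The names give 6 subunits of complex I, 4 of complex II, 6 of complex III, 2 cytochrome c genes, 6 subunits of complex IV, 3 factors that build complex IV, and 9 subunits of the ATP synthase. The other 8 genes of the current gene table with such names (cox-6B, cox-10, cox-14, cox-16, cox-18, cox-19, nuo-3 and ucr-11) were not analysed here.

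Each of 3 two-colour arrays carried mRNA of 1 worm prep in one channel and a mixed wild-type reference in the other. The 3 preps form 1 group, hermaphrodites at an early point of young adulthood. Strain, food and temperature of the worms, and which stages and sexes the reference pooled, are not given in the sources. Each value is a log2 ratio, likely worms over reference: the labels put the worms in channel 2, and 3 collagen genes of the adult cuticle (col-7, col-19 and col-62) had mean ratios of 2.51 to 2.69. The dyes are not given, and every direction would turn round if the ratios ran the other way.

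In the respiratory chain, complexes I and II pass electrons from NADH and succinate to ubiquinone, complex III passes them on to cytochrome c, and complex IV passes them to oxygen. Complexes I, III and IV pump protons, and the ATP synthase uses the proton gradient to make ATP. In C. elegans several subunits are encoded by more than one gene, and asb-1 is known as the germline form of ATP synthase subunit b. X-linked genes of this worm are known to be largely silenced in the germline.

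More of the 36 genes were above the reference than below it, and the ATP synthase had the highest median among the complexes. A gene was called above or below when limma's test of its mean log2 ratio against 0 had a Benjamini-Hochberg adjusted p under 0.05 over all 15062 genes. By this rule the 36 genes gave 11 above (30.6%), 3 below (8.33%) and 22 that did not pass. Over all genes 21.7% were above and 22.2% below. Against a 1.2-fold margin instead of 0, 9 of the 36 genes were above (13.1% of all genes) and 0 below (2 at an unadjusted p of 0.05; 13.8% of all genes). The median log2 ratio of the 36 genes was 0.21, against 0.00 over all genes, and it was 0.08 once blocks of 200 neighbouring probes were centred on each array. The members ran from −0.63 to 1.17, and all genes from −4.55 to 4.12. The sign was equal in all preps for 24 of the 36 genes, and for 66.3% of all genes. In bulk RNA, a change in the number of cells of a type and a change in RNA per cell cannot be told apart.

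The 3 preps did not weigh equally in these values. The median of the 36 genes was 0.41 in prep 1, 0.13 in prep 2 and 0.13 in prep 3, while the median of all genes was 0.01, −0.02 and 0.00. Across the 36 genes prep 1 correlated with preps 2 and 3 at Pearson's r of 0.73 and 0.67, and preps 2 and 3 correlated at 0.94. Across all genes the same correlations were 0.82, 0.80 and 0.92, so prep 1 stood apart there as well. Prep 1 was the highest array for 21 members (58.3%), against 44.2% of all genes. Without prep 1, 12 members were above and 7 below, while over all genes the shares rose to 25.5% above and 26% below. The sources do not say whether the preps were separate cultures, and the p-values cover no more than the spread among the 3 preps, which may be technical.

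**Figure D1:**
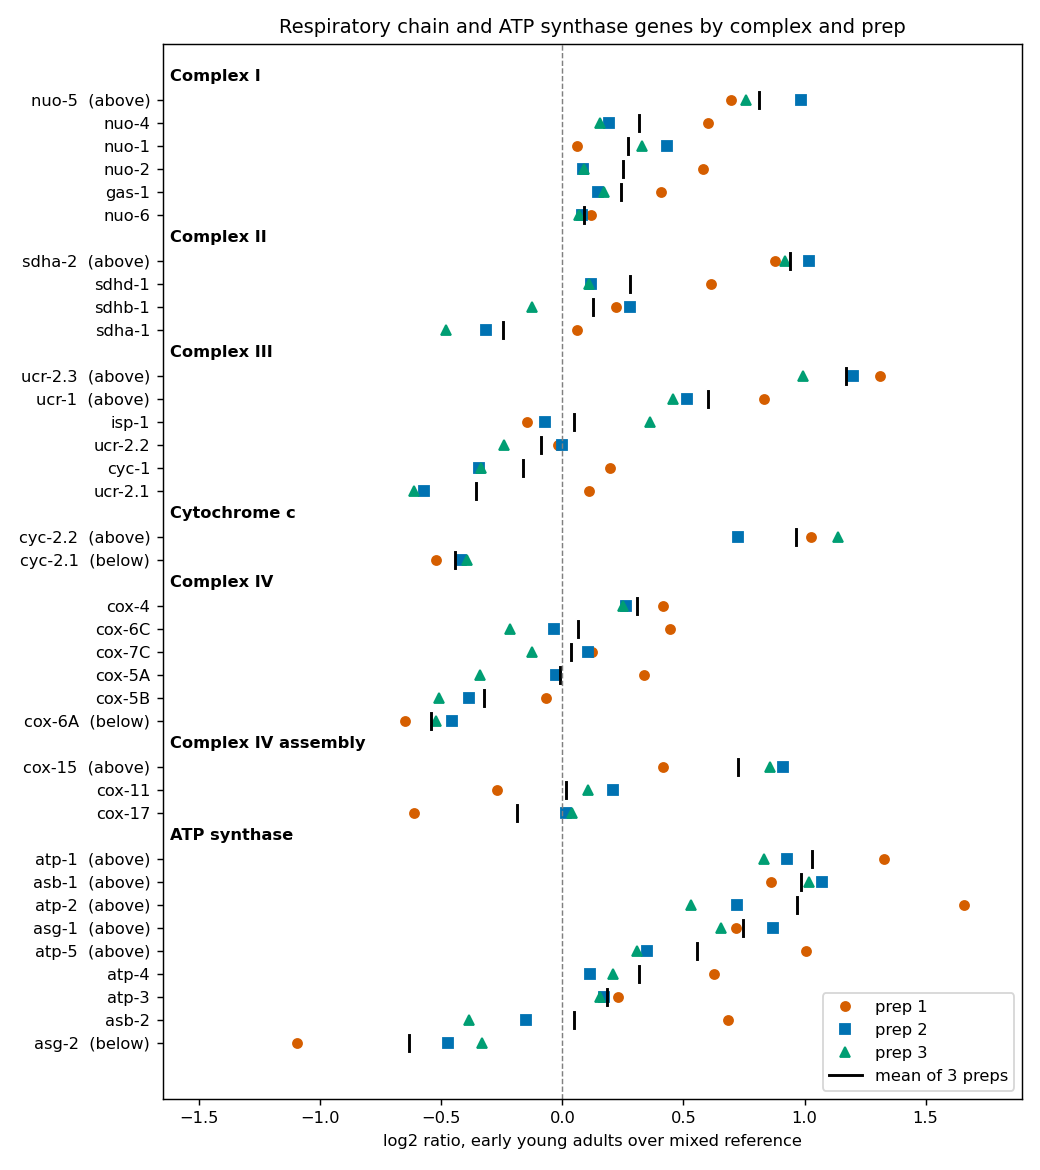
Log2 ratios of the 36 genes, grouped by complex and sorted by mean, with 1 symbol per prep and a bar at the mean of the 3 preps. The x axis is the log2 ratio of early young adults over the mixed reference, the dashed line marks 0, and called genes carry their direction; 5 of 9 ATP synthase genes were called above, and 20 of the 36 genes were above 0 in every prep.

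The ATP synthase had the most members above the reference, 5 of 9, with 1 below, 3 not passing and a median of 0.55. Its median was 0.72 in prep 1, 0.35 in prep 2 and 0.31 in prep 3, and without prep 1 it was 0.33 with the same counts above and below. Its catalytic head is built from alpha and beta subunits, encoded by atp-1 and atp-2. The alpha gene atp-1 was at 1.33, 0.93 and 0.83 in preps 1, 2 and 3, a mean of 1.03 ± 0.26 (SD, n = 3) or a 2.04-fold ratio (adjusted p = 0.000435). Both probes of atp-1 gave nearly the same mean, 1.03 each. The beta gene atp-2 was at 1.66 in prep 1 but 0.72 and 0.53 in preps 2 and 3, a mean of 0.97 ± 0.61 (adjusted p = 0.00409). Without prep 1 its mean was 0.625 and the call held. All 3 preps of both genes were thus above 0, with the beta gene much higher in prep 1 than in the others.

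The stalk of the enzyme joins the head to the membrane, and its genes were less uniform. The subunit d gene atp-5 was at 1.01, 0.35 and 0.31, a mean of 0.55 ± 0.39 (adjusted p = 0.0218), and 0.33 without prep 1. The coupling factor gene atp-4 was at 0.32 ± 0.27 (adjusted p = 0.113) and atp-3, which encodes the subunit that confers oligomycin sensitivity, at 0.19 ± 0.04 (adjusted p = 0.276). Neither passed, although both were above 0 in every prep. The 95% interval of atp-3 was −0.10 to 0.48, so a rise of the size of atp-1 lies outside it.

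Subunit b, part of the same stalk, has 2 genes. The germline form asb-1 was at 0.86, 1.07 and 1.02, a mean of 0.98 ± 0.11 and a 1.98-fold ratio (adjusted p = 0.000304). asb-2 was at 0.68 in prep 1 but −0.15 and −0.39 in preps 2 and 3, and its mean of 0.05 ± 0.56 did not pass (adjusted p = 0.868). The preps of asb-1 lay close together, and those of asb-2 fell on both sides of the reference.

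Subunit g, a membrane subunit, also has 2 genes, and these were called in opposite directions. asg-1 was at 0.72, 0.87 and 0.65, a mean of 0.75 ± 0.11 (adjusted p = 0.00145). asg-2 was at −1.095, −0.47 and −0.33, a mean of −0.63 ± 0.41 (adjusted p = 0.0126), the lowest of the 36 genes. Without prep 1 asg-2 was at −0.40, still called. Every prep of asg-1 was above the reference and every prep of asg-2 below it.

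In complex I, which takes electrons from NADH, all 6 genes were above 0 in every prep, but 1 was called. Over all genes, 33.2% were above 0 in every prep. With blocks of neighbouring probes centred, the means of nuo-4 and nuo-6 fell just below 0, to −0.006 and −0.013. The called gene was nuo-5, for the large iron-sulphur subunit, at 0.70, 0.99 and 0.76, a mean of 0.81 ± 0.15 and a 1.76-fold ratio (adjusted p = 0.00101). The other 5 genes had means between 0.09 and 0.32. nuo-1 encodes the flavoprotein subunit that binds NADH, and was at 0.06, 0.43 and 0.33, a mean of 0.27 ± 0.19 (adjusted p = 0.142). It passed without prep 1 (0.38, adjusted p = 0.026, over its 12 alternatives 0.026 to 0.835).

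Of the remaining complex I genes, gas-1 and nuo-6 are known from mutants with altered lifespan. gas-1, whose mutants are also hypersensitive to volatile anaesthetics, was at 0.24 ± 0.14 (adjusted p = 0.176). nuo-6 was at 0.12, 0.08 and 0.07, a mean of 0.09 ± 0.03 (adjusted p = 0.617, 95% interval −0.20 to 0.38). nuo-2 was at 0.25 ± 0.28 and nuo-4 at 0.32 ± 0.25, with prep 1 at 0.58 and 0.60 and the other preps between 0.09 and 0.19. nuo-6 was the closest to the reference, with preps that differed by less than those of any other member.

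In complex II, which is also the succinate dehydrogenase of the TCA cycle, 1 of 4 genes was above and 3 did not pass. The flavoprotein, which oxidises succinate, has 2 genes. sdha-2 was at 0.88, 1.02 and 0.92, a mean of 0.94 ± 0.07 and a 1.92-fold ratio (adjusted p = 0.000373). sdha-1 was at 0.06, −0.32 and −0.48, a mean of −0.24 ± 0.28 (adjusted p = 0.215). Without prep 1, sdha-1 was called below (−0.40, adjusted p = 0.0223, over its 12 alternatives 0.0223 to 0.912). The iron-sulphur gene sdhb-1 was at 0.13 ± 0.22 (adjusted p = 0.511) and the membrane anchor gene sdhd-1 at 0.28 ± 0.29 (adjusted p = 0.162). The preps of sdha-1 thus did not overlap those of sdha-2.

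Complex III had the highest of the 36 genes, ucr-2.3, with 2 of 6 genes above and 4 that did not pass. The median of the complex was −0.02, and 3 of its 6 genes had means below 0. ucr-2.3 encodes a core protein and was at 1.31, 1.202 and 0.996, a mean of 1.17 ± 0.16 and a 2.25-fold ratio (adjusted p = 0.000135). ucr-1, for the other core protein, was at 0.83, 0.52 and 0.46, a mean of 0.60 ± 0.20 (adjusted p = 0.00626). The 2 X-linked relatives of ucr-2.3 were not above the reference in the mean. ucr-2.1 was at 0.11, −0.57 and −0.61, a mean of −0.36 ± 0.40 (adjusted p = 0.114), and ucr-2.2 at −0.09 ± 0.14 (adjusted p = 0.637). Without prep 1, ucr-2.1 was called below (−0.59, adjusted p = 0.00241, over its 12 alternatives 0.00241 to 0.598).

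Of the subunits of complex III that carry its redox centres, cytochrome c1 and the Rieske protein were measured, and neither gene was called. Cytochrome c1, encoded by cyc-1, was at 0.20, −0.35 and −0.33, a mean of −0.16 ± 0.31 (adjusted p = 0.432). It passed below the reference without prep 1 (−0.34, adjusted p = 0.0401, over its 12 alternatives 0.0401 to 1). isp-1 encodes the Rieske iron-sulphur protein and is known from a long-lived mutant. It was at −0.15, −0.07 and 0.36, a mean of 0.05 ± 0.28 (adjusted p = 0.819). Each of these redox genes had preps on both sides of the reference.

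Cytochrome c, the soluble carrier between complexes III and IV, has 2 genes that were called in opposite directions. cyc-2.2 was at 1.03, 0.73 and 1.14, a mean of 0.96 ± 0.21 (adjusted p = 0.000497). cyc-2.1 was at −0.52, −0.42 and −0.39, a mean of −0.44 ± 0.07 (adjusted p = 0.0197). When prep 2 or prep 3 was left out cyc-2.1 no longer passed (adjusted p = 0.13 and 0.0891, over its 12 alternatives 0.00429 to 0.253). Its value stayed between −0.56 and −0.40 over the same alternatives.

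Complex IV is the cytochrome c oxidase. Its 6 subunit genes gave 0 above by limma (1 at an unadjusted p of 0.05), 1 below and 5 not passing. The median was 0.01, and without prep 1 it was −0.15 with 2 below (26% of all genes were below without prep 1). cox-6A was below the reference at −0.65, −0.45 and −0.52, a mean of −0.54 ± 0.10 and a ratio 1.46-fold lower (adjusted p = 0.00788). cox-5B was at −0.07, −0.39 and −0.51, a mean of −0.32 ± 0.23 (adjusted p = 0.0957), and was called without prep 1 (−0.45, adjusted p = 0.0119, over its 12 alternatives 0.0119 to 0.673). All preps of both genes lay below 0. The difference between complex IV and the ATP synthase was not tested.

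The rest of complex IV stayed near the reference. cox-4 was above 0 in every prep at 0.31 ± 0.09 (adjusted p = 0.0828), with its 2 probes at 0.34 and 0.28. cox-6C was at 0.44, −0.04 and −0.22, a mean of 0.06 ± 0.34, and cox-5A at 0.34, −0.02 and −0.34, a mean of −0.01 ± 0.34. cox-7C was at 0.03 ± 0.14. In cox-5A and cox-6C prep 1 was above the reference and the other preps below it.

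Assembly factors of complex IV insert its haem and copper. The haem a synthesis gene cox-15 was above the reference at 0.41, 0.91 and 0.86, a mean of 0.73 ± 0.27 (adjusted p = 0.00315). The copper genes did not pass: cox-11 was at 0.01 ± 0.25 (adjusted p = 0.946), and cox-17 was at −0.61 in prep 1 and 0.01 and 0.04 in preps 2 and 3 (adjusted p = 0.391). For all 3 genes prep 1 was the lowest array, whereas it was the highest for 21 of the 33 other members.

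**Figure D2:**
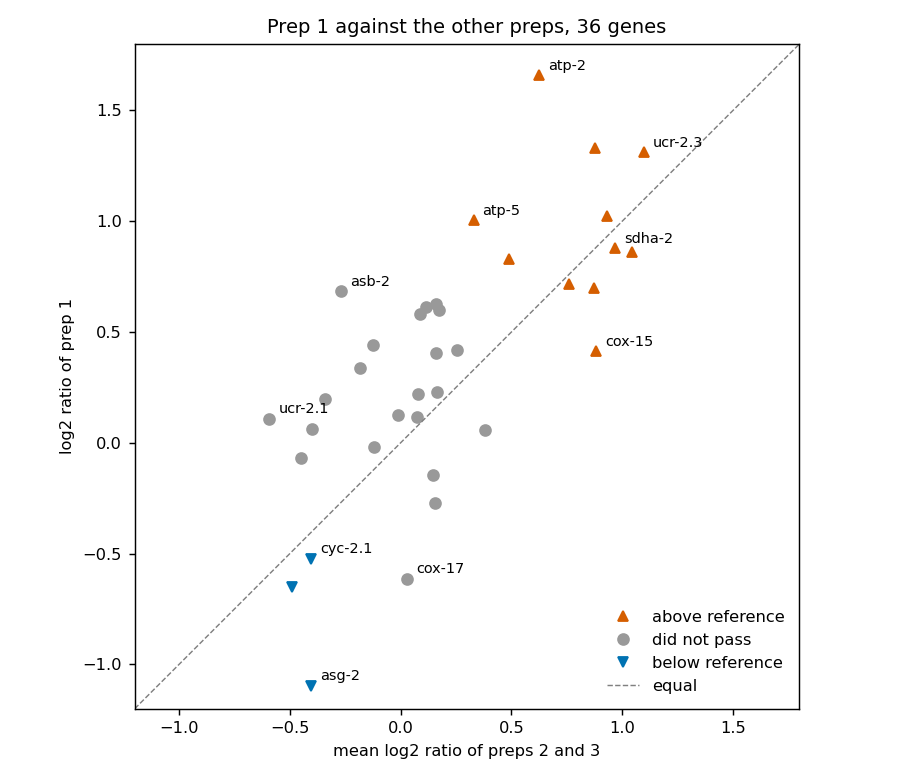
Log2 ratio of prep 1 on the y axis against the mean log2 ratio of preps 2 and 3 on the x axis for each of the 36 genes, with symbols for the call and a dashed line where both are equal. Genes above the line were higher in prep 1, among them atp-2 at 1.66, asb-2 at 0.68 and ucr-2.1 at 0.11, while asg-2 and cox-17 lie below it.

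Among the genes taken by name, some subunits had gene copies on an autosome and on the X chromosome. In these families the autosomal copy had the higher ratio in every prep. There were 4 such families with 5 X-linked copies, which gives 5 pairs and 15 differences within arrays. All 15 were above 0 and ran from 0.18 to 1.81. X-linked genes as a whole were lower too, with a median of −0.22 over 2260 genes against 0.045 over 12802 autosomal genes. How often any autosomal gene exceeded any X-linked gene was not computed. Genes with other names, such as nduf-2.2 of complex I, were not compared with X-linked members such as gas-1. Pairs that share ucr-2.3 are not independent, and differences within an array are free of an array-wide shift.

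The autosomal minus X-linked difference was 1.53 ± 0.29 (SD, n = 3) for ucr-2.3 on chromosome III and ucr-2.1 on X, a 2.88-fold difference in ratio. It was 1.26 ± 0.07 for ucr-2.3 and ucr-2.2, also on X. It was 1.38 ± 0.41 for asg-1 on chromosome I and asg-2 on X, with the preps between 0.99 and 1.81. For sdha-2 on chromosome I and sdha-1 on X it was 1.18 ± 0.32. The b subunit pair had the widest spread: asb-1 on chromosome III minus asb-2 on X was 0.18 in prep 1, 1.22 in prep 2 and 1.41 in prep 3, a mean of 0.94 ± 0.66. Without prep 1 that mean was 1.31. Each of these 5 differences had a two-sided exact sign-flip p of 0.25, the smallest this test can give with 3 arrays.

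Copies on autosomes differed as well. cyc-2.2 on chromosome V minus cyc-2.1 on chromosome IV was 1.55, 1.14 and 1.53, a mean of 1.41 ± 0.23 (exact sign-flip p = 0.25), as large as the differences that involve X. The X-linked pair ucr-2.2 and ucr-2.1 differed by 0.27 ± 0.36 with both signs among the preps (exact sign-flip p = 0.5). Copies of a gene resemble each other and may share signal on an array, and probe sequences were not used here. A shared signal was not tested.

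**Figure D3:**
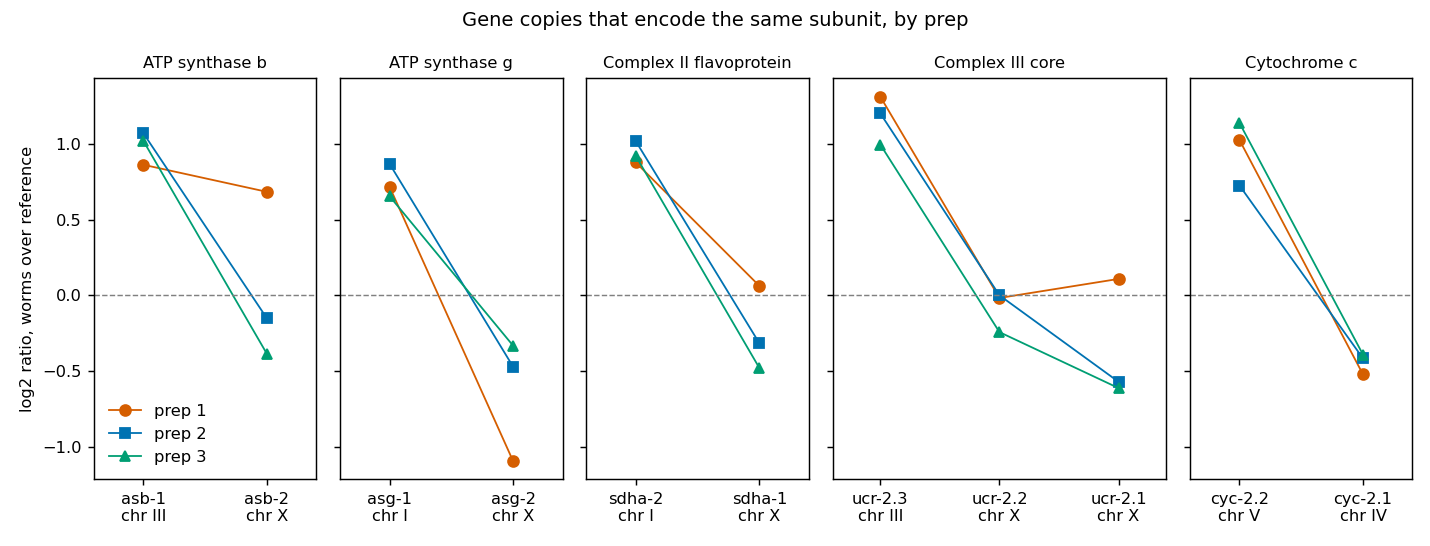
Log2 ratios (y axis) of gene copies that encode the same protein, 1 panel per family, with a line per prep joining the copies and the chromosome under each name. In each panel the left copy was above the others in every prep, by as little as 0.18 for asb-1 over asb-2 in prep 1 and by up to 1.81 for asg-1 over asg-2 in prep 1.

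Over all chromosomes, 11 of 30 autosomal members were above the reference, 2 below and 17 did not pass, with a median of 0.28. The 6 X-linked members had a median of −0.17, with 0 above by limma (also 0 at an unadjusted p of 0.05), 1 below and 5 not passing. Without prep 1 the X-linked members had a median of −0.33 with 3 below. The autosomal members then had a median of 0.16 with 12 above and 4 below. Over all genes, autosomal and X-linked together, 25.5% were above and 26% below without prep 1. The X-linked members were gas-1, which had the highest value, and the 5 X-linked copies compared above. Their values thus overlap with those of the pairs. Among all autosomal genes 24.4% were above and 20.3% below, with a median of 0.045. Among all 2260 X-linked genes 6.5% were above and 33.2% below, with a median of −0.22, near that of the X-linked members. The difference between autosomal and X-linked members was not tested, and 6 X-linked members are few. By chromosome, the members on V had the highest median, 0.68 over 4 genes, and those on IV a median of 0.03 over 4 genes.

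Tissue markers were above or below the reference too. All 8 germline markers were above the reference, from 0.87 for htp-3 to 2.52 for glh-1, as were 29 of 30 major sperm protein genes (median 2.34) and 3 of 3 oocyte markers (0.56 to 1.78). Of 6 neuronal markers 5 were below and 1 did not pass, from −3.31 to −0.27. Body wall muscle markers had 1 of 5 above (median 0.20), pharyngeal muscle markers 1 of 3 below (median −0.23), intestinal markers 2 of 5 above and 2 below (median 0.12), and male neuron markers 1 of 7 below (median 0.06). The part of tissue makeup in the respiratory chain values was not tested.

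Of 25 listed subunits and assembly factors outside the name stems, 19 were measured. Their median was 0.13, with 12 that did not pass. Of the 19, 5 were above (26.3%, against 21.7% of all genes) and 2 below (10.5%, against 22.2%). Above the reference were the copper delivery gene sco-1 at 0.85 ± 0.41 (adjusted p = 0.00279), the complex I genes nduf-2.2 at 0.69 ± 0.31, nduf-11 at 0.64 ± 0.21 and ndab-1 at 0.42 ± 0.08, and the complex III assembly gene bcs-1 at 0.57 ± 0.04. Below were mai-1, a homologue of the ATP synthase inhibitor, at −0.75 ± 0.24 (adjusted p = 0.00234) and the complex I assembly gene nuaf-1 at −0.54 ± 0.13 (adjusted p = 0.00832). The second inhibitor homologue, mai-2, was at 0.18 ± 0.37 and did not pass. mev-1, the remaining subunit of complex II and known from a short-lived mutant, was at 0.52, −0.32 and −0.01, with prep 1 highest. The subunits encoded by mitochondrial DNA were not analysed here.

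Pyruvate dehydrogenase and the TCA cycle supply the chain with NADH and succinate. The 23 measured genes listed under these names had a median of 0.40, with 10 that did not pass. Of the 23, 11 were above (47.8%, against 21.7% of all genes) and 2 below (8.7%, against 22.2%). Not every listed gene supplies the chain, and those that do were not separated. The succinyl-CoA ligase gene suca-1 was at 1.01, 1.52 and 1.39, a mean of 1.31 ± 0.26 (adjusted p = 0.000114), and the 2-oxoglutarate dehydrogenase gene dlst-1 at 1.095 ± 0.22 (adjusted p = 0.000252). The isocitrate dehydrogenase gene idhg-2 was at −1.13 ± 0.17 (adjusted p = 0.00017) and the aconitase gene aco-2 at −0.58 ± 0.18 (adjusted p = 0.00683). Genes below the reference were thus 2 of the 23, and their preps all lay below 0.

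Ubiquinone carries electrons from complexes I and II to complex III. The 7 measured genes of its synthesis had a median of 0.11, with 4 not passing. Of the 7, 2 were above (28.6%, against 21.7% of all genes) and 1 below (14.3%, against 22.2%). Here prep 1 had the lowest median, −0.34, against 0.24 in prep 2 and 0.29 in prep 3. coq-8, a kinase-like gene, was at 0.91 ± 0.27 (adjusted p = 0.000861) and coq-3 at 0.38 ± 0.19 (adjusted p = 0.0474). coq-2 was at −0.46 ± 0.11 (adjusted p = 0.0173), and clk-1, a hydroxylase gene known from long-lived mutants, at −0.34 ± 0.07 (adjusted p = 0.0563). All 3 preps of coq-2 and of clk-1 were below 0.

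**Figure D4:**
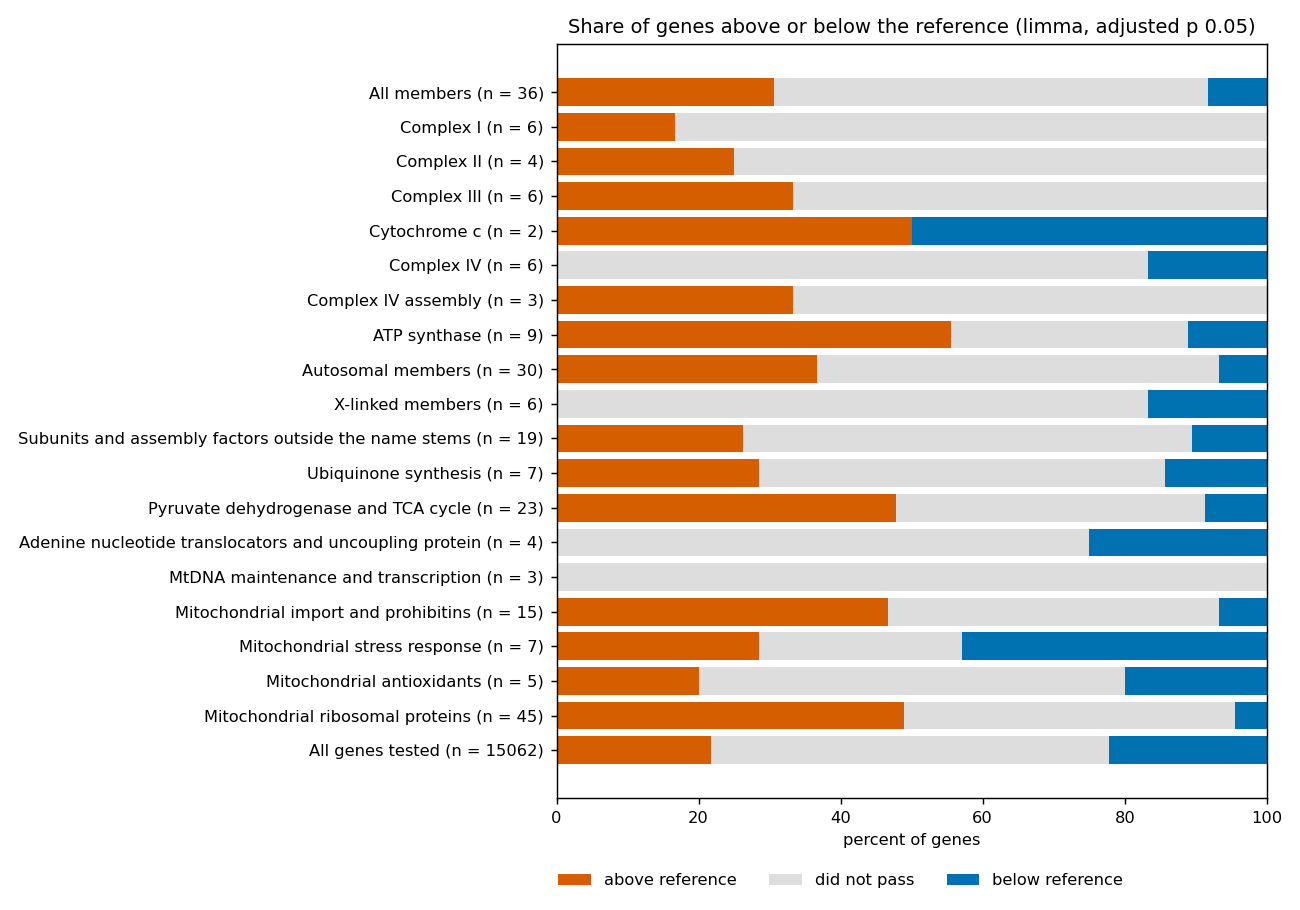
Percent of genes (x axis) above the reference, not passing, and below it, for the 36 genes, their complexes and chromosomes, the further mitochondrial lists, and all 15062 genes tested. ATP synthase genes were above in 5 of 9 cases and complex IV subunits in 0 of 6, against 21.7% of all genes.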

How the data were processed

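The authors deposited a log2 ratio for each probe on each array. That the base is 2 was inferred: with it 100% of ratios below 1 became multiples of 0.001 (tolerance 0.01 of a step), but with base e only 3.12%. No source names the background correction, normalization, dyes or tools. The column medians were 0.01, 0.01 and 0.02, so the ratios were used as deposited.

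Of 20000 probes 19664 had a value on all arrays. A platform annotation named 15853 probes, 15655 with 1 symbol, 198 with several, and 4147 were not listed. All 36 member symbols were found in a table of WBcel235 genes, used for names and chromosomes only. A gene's probes were averaged on each array. The test was limma 3.58.1 in R 4.3.3 (an intercept fit with eBayes moderation, two-sided), adjusted by Benjamini-Hochberg over 15062 genes. The prior had 7.34 degrees of freedom. The reference's own spread is not in the test. On simulated data for 15062 genes, of which 200 were changed, 44% of 50 genes changed by 0.5 were called and 100% of 50 changed by 1. Among the unchanged genes 20 were called. In the real data 44% of all genes were called, which makes the adjustment less strict. The simulated shares therefore do not give the power in these data.

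Members, lists and named genes were chosen with earlier results of these data known. Every member is named, with the 2 highest and 2 lowest genes of longer lists; other names, such as mai-2, mev-1, nduf-11, ndab-1 and bcs-1, were picked after their values were seen. The alternatives were 3 ways of adjusting the arrays, probes on at least 2 arrays, robust or no moderation, a 1.2-fold margin, blocks of 200 neighbouring probes centred, the first probe of a gene, subunits only, and each prep left out.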

Additional observations from a re-analysis of the deposited data

How the results depend on the processing

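Over 12 alternatives the 14 called genes kept their direction. Robust moderation, the first probe of each gene, probes on at least 2 arrays, and arrays that were centred, scaled or quantile normalized changed no call among the 36 genes. Without moderation 0 genes were above and 0 below by limma's unmoderated test (12 and 2 at an unadjusted p of 0.05), as for all 15062 genes. Against a 1.2-fold margin 9 were above (13.1% of all genes) and 0 below (2 at an unadjusted p of 0.05, 13.8% of all genes at the adjusted threshold), and ucr-1, cyc-2.1, cox-6A, atp-5 and asg-2 no longer passed. With blocks of neighbouring probes centred 11 were above and 4 below, and the median of the members was 0.08. The differences of ucr-2.3 from ucr-2.1 and ucr-2.2 were then 1.24 and 1.09, against 1.53 and 1.26 in the main fit. Those of asg-1 from asg-2, sdha-2 from sdha-1 and asb-1 from asb-2 were 1.05, 0.93 and 0.76, against 1.38, 1.18 and 0.94. The cyc-2.2 minus cyc-2.1 difference went the other way, from 1.41 to 1.56. The cause was not tested. With subunits and carriers only, 10 were above and 3 below. Leaving out 1 prep gave 11 to 12 genes above and 2 to 7 below, with medians of 0.15 to 0.26. The 7 came without prep 1, which added sdha-1, ucr-2.1, cyc-1 and cox-5B. Over all genes, leaving out 1 prep gave 15.1% to 25.5% above and 15.5% to 26% below. No paired analysis was possible because there is 1 group. The 3 arrays limit precision, spot intensities were not analysed here, and dim spots could not be filtered.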

Other observations

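Genes that make and import mitochondrial proteins were above the reference more often than below it. Among 45 mitochondrial ribosomal protein genes the median was 0.38, with 22 above, 2 below and 21 not passing, against 21.7% above and 22.2% below over all genes. mrps-16 was at 1.01 ± 0.16 and mrps-30 at 0.96 ± 0.02 (SD, n = 3; limma adjusted p = 0.000299 and 0.000303). mrps-11 at −0.91 ± 0.09 and mrpl-41 at −0.76 ± 0.32 were below. The 15 import and prohibitin genes had a median of 0.41, with 7 above, 1 below and 7 not passing. In preps 1, 2 and 3 the ribosomal protein genes had medians of 0.31, 0.50 and 0.45. The import and prohibitin genes had 0.58, 0.37 and 0.30. tin-9.2 was at 1.13 ± 0.26 and the outer membrane receptor gene tomm-70 at 1.07 ± 0.11. The inner membrane translocase gene timm-23 was below at −0.71 ± 0.36 (adjusted p = 0.00558), and tomm-7 at 0.03 ± 0.08 did not pass.

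Genes of the mitochondrial stress response lay on both sides. Their 7 measured genes had a median of −0.17, with 2 not passing. Of the 7, 2 were above (28.6%, against 21.7% of all genes) and 3 below (42.9%, against 22.2%). The protease gene lonp-1 was at 0.67 ± 0.17 and the chaperone gene hsp-6 at 0.47 ± 0.12, while dve-1 was at −0.74 ± 0.26 and the protease gene clpp-1 at −0.46 ± 0.40 (adjusted p = 0.0466). Among 5 mitochondrial antioxidant genes, prdx-3 was above at 0.36 ± 0.04 (adjusted p = 0.0451) and the thioredoxin gene trx-2 below at −0.66 ± 0.04 (adjusted p = 0.00244). The superoxide dismutase genes sod-2 and sod-3, at −0.19 ± 0.25 and −0.04 ± 0.15, and trxr-2, at 0.00 ± 0.12, did not pass. The adenine nucleotide translocator gene ant-1.1 was at −0.07, −1.08 and −0.85 (mean −0.67 ± 0.53, adjusted p = 0.0181), so that prep 1 stood above preps 2 and 3. Its relatives ant-1.2 at 0.10 ± 0.21 and ant-1.3 at −0.24 ± 0.18, and the uncoupling protein gene ucp-4 at 0.35 ± 0.42, did not pass. Of 3 genes of mitochondrial DNA maintenance, hmg-5 at −0.35 ± 0.35, mtss-1 at 0.13 ± 0.24 and tfbm-1 at 0.04 ± 0.21, 0 passed by limma (0 at an unadjusted p of 0.05).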
